A study of Mus musculus with 6 samples.

Results

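The probesets described here are those to which the annotation used here of the Affymetrix mouse expression array gives no gene, called unnamed probesets below. They were selected on their mean signal over all 6 arrays, which had to be at least 50, after the 64 control probesets had been set aside. This left 4882 of the 9160 unnamed probesets, which is 10.8% of the 45037 probesets that are not controls. They were compared with the 26510 probesets that the annotation assigns to exactly 1 gene and that reach the same mean signal, within 20 bins of mean signal that each hold nearly the same number of unnamed probesets. The arrays were hybridised with RNA of the hippocampus of male mice that were 9 months old, 1 mouse per array. The Tg group had 3 untreated mice that carry extra copies of Glud1 (glutamate dehydrogenase 1) under the neuron-specific enolase promoter, which drives it in neurons. The wt group had 3 untreated mice without the transgene, and both groups had the C57BL/6 background. Tissue was homogenised whole, so that fewer cells of a type and less RNA per cell cannot be told apart in any value below.

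Array probesets were designed on clustered cDNA and expressed sequence tag sequences, which were not all tied to a gene model. Such sequences can come from long non-coding RNAs, from unspliced introns of nuclear transcripts, from extended or alternative 3' ends of known mRNAs, or from genomic DNA left in a cDNA library. The probes of a probeset lie near the 3' end of the sequence they were designed on, and a labelled target primed at a poly(A) tail or at an internal run of A reaches them. A suffix after the probeset number tells how the probes were chosen. The plain _at form matches 1 transcript, _a_at matches several transcripts of 1 gene, and _s_at and _x_at are allowed to share probes or near-identical probes with other genes.

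The label of the set held only in part. Of the 4882 unnamed probesets, 301 are on the study's own list of differing probesets, and that list gives a description for some of them. It gives a symbol to 98, of which 64 are clone-type names and 34 are ordinary gene symbols. The 34 stand for 28 distinct genes, and 26 of these are found nowhere in the annotation used here. Of the other 203, 44 have a title that names a full-length RIKEN cDNA, 37 are called a transcribed locus and 120 have no title. A probeset that the annotation leaves out is therefore unnamed here and not known to lack a gene, and the set mixes clone-derived sequences with ordinary mRNAs. The listed probesets with an ordinary gene symbol had a median mean signal of 422, against 222 for the other listed ones. Because the list was chosen on these same samples, it is used here for identities and for no support of a direction.

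A second view of the mixture came from the probeset numbers. In blocks of 1000 consecutive numbers, the share of probesets without a gene was under 10% in 22 blocks, from 10% to 40% in 15 blocks and at least 40% in 9 blocks. The first kind of block held 889 of the selected probesets, with a median mean signal of 383. The second kind held 1646, with a median of 120.05, and the third held 2347, with a median of 108. The blocks rich in unnamed probesets were thus also those in which they were dim.

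Unnamed probesets were dimmer than named ones on the whole. Their median mean signal was 119, against 352.5 for probesets of 1 named gene. A mean signal of at least 200 was reached by 1461 of them (29.9%), compared with 63.9% of the named probesets. At least 1000 was reached by 383 (7.85%, named 24.2%) and at least 5000 by 97 (1.99%, named 3.98%). The plain _at form made up 92.0% of them (4491), against 74.9% of the named probesets, and the _x_at form 3.22% (157), against 5.95%.

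The 6 brightest unnamed probesets were 1435643_x_at with a mean signal of 45400.1, 1449436_s_at with 44800.2, 1423807_a_at with 38383, 1453723_x_at with 38378, 1416624_a_at with 37815 and 1433592_at with 23542. Of these, 5 carry a suffix, and only 1433592_at has the plain form. At the lower edge, 1438243_at, 1458672_at and 1457102_at entered with a mean signal of 50.02 each, and 1415848_at, 1458581_at and 1444737_at stayed out with 49.97 each. MAS5 signals at this edge are close to the background of the array, and detection calls were not used here.

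Across the whole table, array quality moved with the groups in part. The median signal of the probesets kept for the test was 315 ± 4.80 in Tg and 300.2 ± 4.49 in wt (SD, n = 3 each). The ratio of 3' to 5' signal of Actb, a measure of RNA integrity and labelling length, was 1.66 ± 0.0271 in Tg and 1.84 ± 0.125 in wt, without overlap (two-sided exact permutation test, p = 0.1, the smallest that 3 against 3 arrays can give). The same ratio for Gapdh was 0.787 in Tg and 0.824 in wt (exact permutation p = 0.6). The 18S ribosomal RNA control was brighter on wt 1 (13960) and wt 2 (10375) than on the other 4 arrays (976 to 3313). The brightest named Glud1 probeset read 5424 ± 268 in Tg and 6010 ± 368 in wt (log2 fold change -0.15, limma adjusted p = 0.593), and since the 3' end of the transgene's mRNA is not given, it checks no label. No probeset of the table passed limma at an adjusted p under 0.05 (0% of 31075), while an unadjusted p under 0.05 was found for 1863 in the upward and 1183 in the downward direction in Tg.

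Markers of cell types, each read at the brightest probeset of its gene, also moved with the groups, and their part in the results below was not tested. All 8 markers of dentate granule cells were higher in Tg, or 7 with arrays centred on the median (median log2 fold change 0.62, summed signal 15325 to 16571 in Tg and 11815 to 15314 in wt). Of 7 measured markers of retrohippocampal cortex and neocortex, 5 were lower (median -0.47, 8468 to 9660 in Tg and 10303 to 11267 in wt). All 5 choroid plexus markers had a negative log2 fold change (median -0.77, none at an unadjusted p under 0.05), although the mean signal of 4 of them was higher in Tg, with a summed signal of 4620 to 66766 in Tg against 48108 to 54493 in wt, so that the Tg arrays lay on both sides of the wt arrays. For markers of CA pyramidal cells 4 of 6 were higher (median 0.13), for oligodendrocytes 2 of 5 (-0.07), for astrocytes 1 of 5 (-0.15) and for microglia 2 of 5 (-0.07). The 6 nuclear-retained non-coding RNAs with a name, Malat1 among them, were all higher, or 5 of 6 with arrays centred on the median (median 0.10), with summed signals of 59126 to 63531 in Tg inside the wt range of 42898 to 68788.

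The comparison of Tg with wt asked whether neuronal excess of Glud1 goes with altered hippocampal transcript levels, and the unnamed probesets leaned to one side in it. More of them were higher in Tg than lower, and the lean was found among those of dim and middle signal and not among the brightest. Of the 4882, 4583 passed the filter that left out the 31% of probesets with the lowest mean signal, and 299 with a mean signal from 50 to 54.7 were not tested. At an unadjusted p under 0.05 in limma, 488 were higher in Tg (10.6%), against 6.0% of all probesets tested, and 95 were lower (2.07%), against 3.81%. None passed at an adjusted p under 0.05 (0% of all), and the smallest adjusted p was 0.135. Of the 583 with an unadjusted p under 0.05, 83.7% were higher in Tg, a share that went down to 71.1% when each array was centred on its own median signal. With that centring 7.99% were higher and 3.25% lower, against 3.96% and 6.95% of all tested.

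Groups without overlap gave the same picture. All 3 Tg arrays lay above all 3 wt arrays in 632 unnamed probesets (13.8%), against 8.60% of all tested, and below them in 177 (3.86%), against 6.68%. The fitted difference was positive in 3011 (65.7%), compared with 53.3% of all tested. The median log2 fold change was 0.15 for the unnamed probesets and 0.020 for all tested, and with arrays centred on the median it was 0.09 and -0.05. Most differences were modest in size. Of the 488, 462 were at least 1.3-fold higher (10.1%, against 4.98% of all tested with that p and size), 344 were at least 1.5-fold higher (7.51%, against 3.12%) and 111 at least 2-fold higher (2.42%, against 1.01%). Of the 95 lower ones, 70 reached 1.3-fold (1.53%, against 2.06%), 46 reached 1.5-fold (1.0%, against 1.13%) and 24 reached 2-fold (0.524%, against 0.444%).

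**Figure D1:**
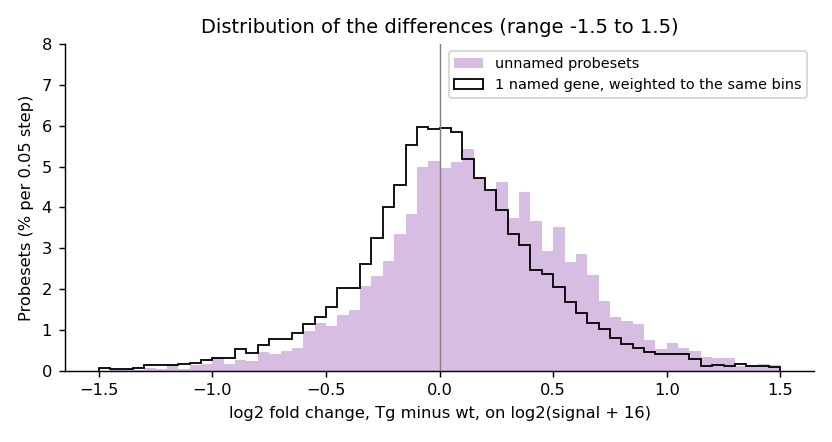
Share of probesets (% per step of 0.05) by log2 fold change, Tg minus wt, on the log2(signal + 16) scale, for unnamed probesets (filled) and probesets of 1 named gene weighted to the same 20 bins of mean signal (line), with values beyond 1.5 in either direction left out. The filled distribution is shifted to the right. The weighted mean of its bin medians is 0.17, against 0.043 for the named probesets.

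Setting the unnamed probesets against named ones of the same brightness left a difference. With weights that give each bin of mean signal the same part in both, 53.9% of the named probesets were higher in Tg, against 65.7%. The weighted mean of the bin medians of log2 fold change was 0.043 for the named and 0.17 for the unnamed probesets. At an unadjusted p under 0.05, 4.39% of the weighted named probesets were higher and 2.86% were lower, against 10.6% and 2.07%. The spread between arrays of a group was alike. Its within-group SD, with bin medians averaged in the same way, was 0.38 (log2) for unnamed and 0.39 for named probesets.

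Among the named probesets themselves the values were not uniform. Probesets that were the brightest of their gene were higher in Tg at an unadjusted p under 0.05 in 2.48% and lower in 3.44%, after the same weighting. Dimmer probesets of genes that have a brighter one were higher in 6.24% and lower in 2.35%. The unnamed probesets (10.6% and 2.07%) thus lay beyond the dimmer named probesets in the same direction. The 701 named probesets of annotated long non-coding RNA genes, whose median signal of 109 is close to that of the unnamed ones, were higher in 33 cases (4.71%) and lower in 19 (2.71%), with a median log2 fold change of 0.06.

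**Figure D2:**
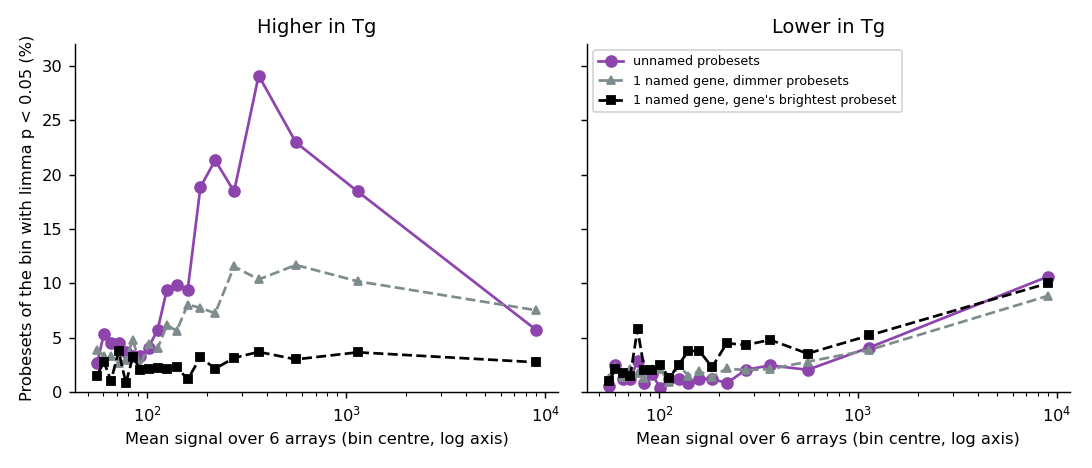
Share of probesets with an unadjusted limma p under 0.05 that were higher (left) or lower (right) in Tg, by bin of mean signal over 6 arrays (log axis), for unnamed probesets (circles), dimmer named probesets (triangles) and the brightest named probeset of each gene (squares). The share of unnamed probesets higher in Tg rises to 29.1% in the bin of mean signal from 309.6 to 424.6 and falls to 5.71% in the brightest bin.

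The share passing an unadjusted p under 0.05 varied with the signal level, and so did the lean in sign. In bins 2 to 10, where the mean signal is under 119, 89 of 2142 unnamed probesets were higher at an unadjusted p under 0.05 (4.16%), against 2.98% of the named ones. Lower by the same p were 30 (1.40%), against 1.91% of the named ones. The lean in sign of the unnamed probesets was smaller there than in the middle bins, with 62.7% positive (named 54.4%). Their median log2 fold change was 0.16 (named 0.05), and their median within-group SD was 0.50, against 0.28 in bins 11 to 19. In bins 11 to 19, with mean signals from 119 to 1770, 385 of 2196 were higher (17.5%) and 39 lower (1.78%). Of the named probesets, 5.81% were higher when weighted to the same bins, and 3.48% were lower without that weighting. The difference was positive in 71.9% there (named 53.3%), with a median of 0.18 (named 0.02). These last named values, and those given for bins 2 to 10, were not weighted to the bins. The share higher in Tg peaked at 29.1% (71 of 244) in bin 17, which spans mean signals of 309.6 to 424.6, where 6.96% of the named probesets were higher. Lower in that bin were 2.46% of the unnamed and 3.48% of the named probesets. The lean in sign was already smaller in bin 19, at mean signals from 735 to 1770. There 57.4% of the unnamed probesets were positive (named 47.5%), with a median log2 fold change of 0.05 (named -0.01). In bin 20, at mean signals of 1785 and above, 14 of 245 were higher (5.71%) and 26 were lower (10.6%), beside 4.15% and 9.66% of the named probesets. The median log2 fold change there was -0.05 for the unnamed and -0.04 for the named probesets, so that the brightest unnamed probesets did not share the lean.

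The count at the middle level moved with the arrays used, for named probesets as well. Without Tg 3, 235 of the 2196 in bins 11 to 19 were higher (10.7%), with 3.55% of the named ones and a median log2 fold change of the unnamed ones that was still 0.18, and without Tg 1 268 were higher (12.2%, named 5.77%). Leaving out Tg 2 gave 396 (18%, named 4.79%), leaving out wt 1 gave 403 (18.4%, named 6.89%), and leaving out wt 2 or wt 3 gave 307 or 312. Without wt 1 and wt 2, the arrays with the bright 18S control, 287 were higher (13.1%, named 3.62%). With arrays quantile-normalised to each other, 293 were higher (13.3%, named 4.08%), and with arrays centred on the median, 285 were higher (13.0%, named 3.81%).

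The arrays were then read one by one, without any test between groups. The median signal of the unnamed probesets was 130.05, 127.15 and 135.65 on Tg 1, Tg 2 and Tg 3, and 127.35, 105.9 and 110.35 on wt 1, wt 2 and wt 3. The Tg arrays lay close together, and wt 1 lay above Tg 2, so the groups overlapped. The offset was defined as the median log2 signal of the unnamed probesets minus that of named ones, taken in each bin and averaged over bins. It was 0.11, -0.0066 and 0.068 on the Tg arrays and -0.0051, -0.050 and -0.085 on the wt arrays. Its mean was 0.056 ± 0.058 in Tg and -0.047 ± 0.040 in wt (SD, n = 3 each), a difference of 0.10 with Tg 2 just below wt 1.

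Restricted to bins 11 to 19, the offset was 0.11, -0.021 and 0.064 on the Tg arrays and -0.061, -0.088 and -0.13 on the wt arrays. Here all Tg arrays lay above all wt arrays, and the means differed by 0.14. This split of the bins was not planned and follows where the lean appeared in these same arrays. The separation is therefore no separate evidence of the lean. In bins 1 to 10 the means differed by 0.08 and the groups overlapped. In bin 20 the Tg arrays read 0.33, 0.23 and 0.31 and the wt arrays 0.27, 0.29 and 0.25, with the wt arrays inside the Tg range.

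**Figure D3:**
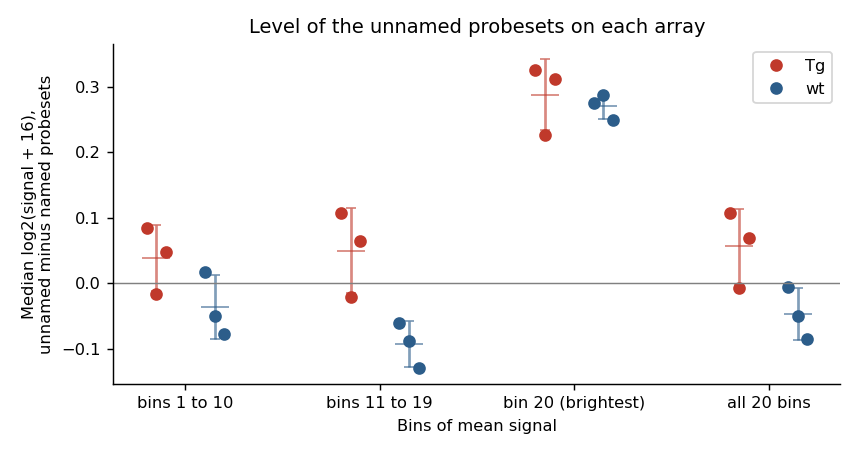
Offset of each array (median log2(signal + 16) of the unnamed probesets minus that of named probesets of the same bins) for bins 1 to 10, 11 to 19, 20 and all 20, with 1 point per array in the order 1, 2, 3 from left to right, red for Tg and blue for wt, and bars for the mean ± SD of 3 arrays. The groups are apart only in bins 11 to 19, where Tg lies between -0.021 and 0.11 and wt between -0.13 and -0.061. The split of the bins follows the lean seen in these same arrays.

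The extremes over the 6 arrays were shared unevenly. The highest signal of an unnamed probeset fell on Tg 3 in 25.4% of them, on wt 1 in 21.5%, on Tg 1 in 20.2% and on Tg 2 in 15.8%, but on wt 2 in 8.64% and on wt 3 in 8.44%. The lowest signal fell on wt 2 in 24.5%, on wt 3 in 20.6% and on wt 1 in 18.2%, and on each Tg array in 11.4% to 13.4%. Among named probesets, not weighted to the bins, the highest signal fell on Tg 1, Tg 2 and Tg 3 in 14.1%, 16.9% and 19.5% and on wt 1, wt 2 and wt 3 in 19.9%, 16.7% and 12.9%. Their lowest signal fell on the Tg arrays in 16.4%, 14.3% and 17.8% and on the wt arrays in 19.5%, 19.5% and 12.6%. Set against the named ones, unnamed probesets gave the highest value more often on Tg 1, Tg 3 and wt 1 and less often on Tg 2, wt 2 and wt 3. They gave the lowest value more often on wt 2 and wt 3 and less often on every other array. These shares were not tested, and the sets differ in brightness.

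The probesets with the smallest p were examined next, in the upward direction first. For 1443271_at, which the study's list titles an unclassifiable RIKEN cDNA of embryonic spinal ganglion, the signals were 531.1, 386.3 and 506.9 in Tg and 160.6, 203 and 110.4 in wt. Every Tg value was well above every wt value, and the log2 fold change was 1.52 (SE 0.23, limma adjusted p = 0.135, Cyber-T adjusted p = 0.0198). For 1441467_at, titled a RIKEN cDNA of neonatal thymus, they were 672.8, 732.7 and 697.2 in Tg and 347.1, 340.6 and 404 in wt. Here the arrays within each group lay close together, with means of 701 ± 30.1 and 364 ± 34.9 (SD, n = 3 each) and a log2 fold change of 0.92 (SE 0.14, limma adjusted p = 0.135).

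For 1441253_at, titled a RIKEN cDNA of embryonic heart, the signals were 1199.6, 1144.8 and 1282.4 in Tg and 628.2, 670.7 and 778.5 in wt. The groups were apart by more than the range within either of them (log2 fold change 0.79, SE 0.13, limma adjusted p = 0.135). For 1446497_at, titled a RIKEN cDNA of neonatal kidney, they were 439.9, 455.4 and 507.3 in Tg and 224.7, 171.5 and 274.6 in wt. The lowest Tg value was well above the highest wt value (log2 fold change 1.03, SE 0.20, limma adjusted p = 0.193). The titles name the tissue of the cDNA library from which a sequence was first read, and not a tissue to which the transcript is limited.

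The dimmest of the 8 were 1443239_at and 1442445_at. The former read 312.5, 257.6 and 265.8 in Tg and 114.8, 95.4 and 124.4 in wt. The latter read 300.4, 301.7 and 318.7 in Tg and 141.7, 94 and 142.2 in wt. Both had a log2 fold change of 1.21 (limma adjusted p = 0.193 each) and groups that were far apart for their spread.

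The brightest of the 8 was 1440037_at, for which the study's list has a gene symbol that is not used here. Its signals were 1556.5, 1331.2 and 1688 in Tg and 972.4, 928.8 and 940.7 in wt. The wt arrays were close to one another while the Tg arrays varied more (log2 fold change 0.67, SE 0.12, limma adjusted p = 0.186). The last of the 8, 1446065_at, read 1291.3, 1050.8 and 975.6 in Tg and 590, 484.2 and 742.7 in wt, with groups apart (log2 fold change 0.86, SE 0.17, limma adjusted p = 0.193).

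Downward, the probesets with the smallest p were mostly bright. The first, 1427123_s_at, read 1661.5, 2624.8 and 2193.5 in Tg and 3476.9, 3806.7 and 3437.3 in wt. The Tg arrays were spread out and all lay below the wt arrays (log2 fold change -0.75, SE 0.14, limma adjusted p = 0.193, Cyber-T adjusted p = 0.0204). A second probeset with the same title in the study's list, 1427320_at, read 2000.6, 2569.8 and 2445.2 in Tg and 3106.2, 3464.5 and 3172.5 in wt. It ranked the 3 Tg arrays in the same order and had a log2 fold change of -0.48, and as readings of 1 transcript these values are not independent.

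For 1434893_at the signals were 6980.3, 5905.7 and 6147.9 in Tg and 7888.4, 10162.7 and 10294.7 in wt. It was the brightest of the lower group, with Tg 1 and wt 1 nearest to each other (log2 fold change -0.57, SE 0.11, limma adjusted p = 0.193). Its partner by title, 1455136_at, read 970.7, 1113.5 and 1095.9 in Tg and 1469.5, 1479.1 and 1689.8 in wt. At a far lower signal it was lower in Tg by a similar amount (log2 fold change -0.54).

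The transcribed locus behind 1434025_at read 213.8, 269.4 and 243.3 in Tg and 380.5, 562.4 and 604.7 in wt. Its wt arrays all lay far above its Tg arrays (log2 fold change -1.02, SE 0.20, limma adjusted p = 0.193). For 1443129_at the signals were 24.5, 8.9 and 13.2 in Tg and 203.5, 135.8 and 82 in wt. Its fitted log2 fold change of -2.26 (SE 0.52, limma adjusted p = 0.222) rests on Tg signals at or near the added constant of 16, so its size depends on that constant. The remaining pair, 1455603_at and 1436646_at, had log2 fold changes of -0.41 and -0.42 at mean signals of 2843 and 2156, with groups that did not overlap.

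**Figure D4:**
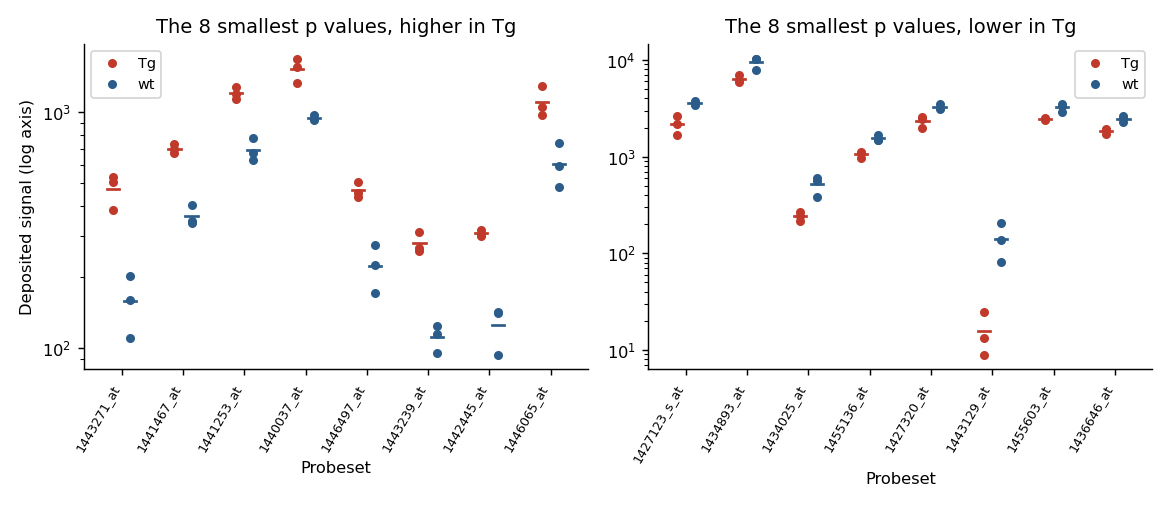
Deposited signal (log axis) of the 8 unnamed probesets with the smallest limma p among those higher in Tg (left) and the 8 among those lower (right), with 1 point per array, red for Tg and blue for wt, and a line at each group mean. No probeset shown has overlapping groups, and the lower ones are mostly above a signal of 1000 while the higher ones are mostly below it.

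Cyber-T, which borrows the spread of probesets of like signal more strongly, called 14 unnamed probesets at an adjusted p under 0.05, 11 higher and 3 lower, beside 66 of all tested (0.212%). All 14 are on the study's list, which was chosen on these samples in part by the same method, so the calls are not separate evidence. The 14 comprise the 8 above with the smallest p upward, 1427123_s_at, 1434893_at and 1434025_at downward, and 1457553_at, 1443705_at and 1441679_at upward. Of these last, 1457553_at read 1122.9, 917.2 and 1276.2 in Tg and 813.5, 476.1 and 583.9 in wt, with wt 1 not far below Tg 2 (log2 fold change 0.83, limma adjusted p = 0.222). The probesets 1443705_at and 1441679_at had log2 fold changes of 1.10 and 1.04 (limma adjusted p = 0.205 and 0.193).

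The largest fold changes with groups apart at a mean signal of at least 200 were not always the steadiest. The largest upward was that of 1455773_at, just ahead of 1443271_at, with signals of 241.8, 252.4 and 348.4 in Tg and 12.3, 127 and 233.2 in wt. The wt arrays covered nearly the whole range, and the log2 fold change of 1.55 (SE 0.60, limma adjusted p = 0.430) was 0.64 without wt 1 and 0.23 without wt 1 and wt 2. For 1444827_at the signals were 313.7, 332.6 and 474 in Tg and 93.8, 216.4 and 116 in wt. Its groups were clearly apart (log2 fold change 1.35, limma adjusted p = 0.209).

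For 1432808_at they were 329.5, 310 and 383.9 in Tg and 160.4, 65.3 and 208.2 in wt. Its log2 fold change of 1.27 (limma adjusted p = 0.239) was 0.84 without wt 2 and 0.67 without wt 1 and wt 2. Downward, 1449880_s_at read 179, 270.3 and 182.4 in Tg and 438.2, 348.3 and 388.5 in wt. The groups were apart, with Tg 2 nearest to wt 2 (log2 fold change -0.87, limma adjusted p = 0.222).

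A few unnamed probesets (3) on the study's list carry a symbol there that belongs to a gene with a named probeset here, which allowed a second reading. These were chosen after their values were seen. The first is 1455537_at, tied to Mir124-2hg, a long non-coding RNA that hosts a copy of microRNA 124, an abundant microRNA of neurons. It read 330.8, 344.5 and 337.8 in Tg and 882.2, 411.3 and 540.1 in wt. The Tg arrays were nearly equal while wt 1 was far above the others, and the log2 fold change of -0.76 (SE 0.23, limma adjusted p = 0.300) was -0.46 without wt 1. The named probeset of the same gene, 1455460_at, read 443.7, 478.6 and 319.6 in Tg and 557.8, 634.4 and 649.6 in wt. It too was lower on every Tg array (log2 fold change -0.57, SE 0.17, limma adjusted p = 0.300), and there wt 1 was the lowest wt array.

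The second is 1437442_at, tied to Pcdh7, a protocadherin of the cell surface. It read 1056.1, 1078.2 and 1065.1 in Tg and 1223, 1650.9 and 1457 in wt. All Tg values were below all wt values (log2 fold change -0.42, limma adjusted p = 0.286), and the named probeset 1456214_at was also lower on every Tg array (-0.39, limma adjusted p = 0.330).

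The third is 1440219_at, tied to Cspp1, which encodes a centrosome and spindle pole protein. It read 488.7, 453.3 and 388.8 in Tg and 323.5, 309 and 298.1 in wt. It was higher on every Tg array (log2 fold change 0.49, limma adjusted p = 0.351), whereas the brightest named Cspp1 probeset, 1454989_at, overlapped fully between groups at means of 495 ± 86.3 and 499.7 ± 109 (SD, n = 3 each, log2 fold change -0.0056). The difference between the readings of this gene was not tested.

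By type of probeset, most unnamed probesets were of the plain _at form. Of 4202 unnamed _at probesets tested, 458 were higher (10.9%) and 77 were lower (1.83%) by the same unadjusted p, against 5.44% and 3.65% of the named _at probesets. Of 153 in the _a_at form, 10 were higher (6.54%, named 5.79%) and 7 lower (4.58%, named 4.78%). Of 75 in the _s_at form, 6 were higher (8.0%, named 3.99%) and 5 lower (6.67%, named 4.75%). Of 153 in the _x_at form, 14 were higher (9.15%, named 2.25%) and 6 lower (3.92%, named 5.99%). The 3 suffixed forms are too few for a comparison between them, and the difference between forms was not tested.

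The blocks of probeset numbers separated the unnamed probesets further. In the blocks with under 10% unnamed, 60 of 873 tested were higher (6.87%) and 45 lower (5.15%), with a median log2 fold change of 0.0088. In the blocks with 10% to 40%, 177 of 1539 were higher (11.5%) and 27 lower (1.75%), with a median of 0.16. In the blocks with at least 40%, 251 of 2171 were higher (11.6%) and 23 lower (1.06%), with a median of 0.23. Over all signal levels, the unnamed probesets of the blocks with under 10% unnamed thus had little lean (51.5% positive). In both other kinds of block they went mostly up (66.8% and 70.6% positive).

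Named probesets of the same blocks, weighted to the same bins, were higher in 4.49%, 4.75% and 6.01% and lower in 4.57%, 2.66% and 2.03%, in the same order of blocks. They moved the same way from block to block by less. Within bins 11 to 19 alone, the shares of unnamed probesets higher in Tg were 8.98%, 20.2% and 20.1%, and those lower were 4.30%, 1.24% and 0.83%. At this middle level, more were thus higher than lower in the blocks with under 10% unnamed as well. Of the 245 probesets of bin 20, 180 lay in the blocks with under 10% unnamed, where 5.0% were higher and 10.6% lower. The blocks with 10% to 40% held 57 of them, with 3.51% higher and 12.3% lower. Only 8 lay in the blocks with at least 40%, with 37.5% higher and 0% lower, too few to read. The values of the brightest bin thus describe mostly the first kind of block. Differences between kinds of block were not tested.

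**Figure D5:**
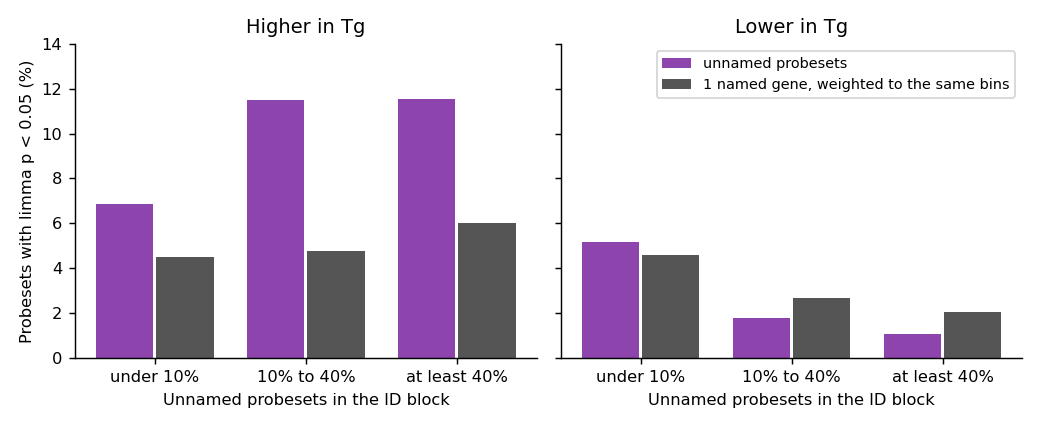
Share of probesets with an unadjusted limma p under 0.05, higher (left) and lower (right) in Tg, for unnamed probesets (purple) and probesets of 1 named gene weighted to the same bins (grey), by the share of unnamed probesets in blocks of 1000 probeset numbers. The unnamed probesets are higher in 6.87%, 11.5% and 11.6% and lower in 5.15%, 1.75% and 1.06% from left to right.

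The 301 probesets of the study's list, 277 up and 24 down there, were also set aside. Of the 4284 tested unnamed probesets that are not on that list, 305 were higher (7.12%) and 82 were lower (1.91%) by the same unadjusted p. The shares of all tested, 6.0% and 3.81%, still include the listed probesets. They are therefore not a like background, and no difference from one was tested. Their difference was positive in 63.9% (all tested 53.3%), with a median log2 fold change of 0.13 (all tested 0.020). Since the listed probesets were removed for their values in these samples, these counts leave out the most differing probesets by construction.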

How the data were processed

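The deposited values are linear MAS5 intensities as made by the authors, a single value for each probeset on each array. The study's own lists rest on RMA, SAM and Cyber-T, which start from scanned images that were not used here. Probe annotation came from the array's GEO annotation, and gene types from RefSeq. The 64 control probesets and the 31% with the lowest mean signal were left out, leaving 31075 (lowest mean signal 54.7). On log2(signal + 16), where fold changes of dim probesets are understated, limma 3.58.1 (R 4.3.3) was fitted to Tg and wt arrays (intensity trend, Benjamini-Hochberg adjustment over all kept probesets). Cyber-T used a window of 101 and a confidence of 10. Both were tested on simulated data. Named probesets were the 8 smallest p in each direction, the Cyber-T calls, the 6 brightest, the 3 on each side of a mean signal of 50, and the 4 largest fold changes in each direction at a mean signal of at least 200 with groups apart. The members and lists were chosen with earlier results of these data known, so shares and medians over members carry no p. Arrays came from separate mice, and 3 arrays a group limit the precision. Alternatives were other added constants, scalings, filters and variance models, a replicate block and leaving out arrays. After seeing the data, leaving out wt 1 and wt 2 together and leaving out the study's list were added. Figures were drawn with matplotlib 3.10.9.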

Additional observations from a re-analysis of the deposited data

How the results depend on the processing

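The count of unnamed probesets higher in Tg at an unadjusted p under 0.05 (488) ranged from 289 (without Tg 3) to 572 (without wt 1) when 1 array was left out, and that of lower ones (95) from 75 to 107. The median log2 fold change ranged from 0.11 to 0.19 and no unnamed probeset passed at an adjusted p under 0.05. The lower count was 149 with arrays centred on the median (higher 366), 61 when only the brighter part of the table was tested and 40 without wt 1 and wt 2, a choice made after seeing the data. At a mean signal of at least 200, 282 were higher and 54 lower, of only 1461 counted. Without the study's list 305 of 4284 were higher. That count is smaller by construction, because probesets listed for their values in these samples were left out. Otherwise the cause of these moves was not tested. With quantile normalization 386 were higher (8.42%, all tested 5.01%) and 112 lower (2.44%, all tested 4.14%). Without a filter 459 were higher and 90 lower, of 4882 unnamed probesets. The brighter part of the table held 2237 of them, and the other settings of this section 4583 where no count is given. Counts on unlike totals cannot be compared directly, and shares of all tested are not given for these other settings. Cyber-T called 14 at an adjusted p under 0.05, where limma called 0 and had 583 at an unadjusted p under 0.05. The replicate numbers are not stated to pair the mice. Deviations from the group means had correlations of -0.017, 0.0077 and 0.033 between same-numbered arrays, which cannot settle whether mice were paired. With the number as a replicate block 474 were higher and 84 lower. For the 24 individually tested probesets, no alternative reversed the direction. All 24 were chosen for a small p or a large fold change, and their groups do not overlap. Leaving out arrays, other added constants, filters and variance models could therefore not reverse them, and no robustness is read from this. Detection calls were not used, so it is not known here which of the dim probesets exceed the array background.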
